A study of Mus musculus with 32 samples.

Results

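Microglia without chemokine activation were taken from the median eminence of the mouse hypothalamus as cells that carried at least 5 UMIs of C1qc, at least 2 UMIs of P2ry12, Cx3cr1 and Gpr34 together, more of these 3 than of the macrophage genes Mrc1, Pf4, F13a1, Ms4a7 and Cd163 together, and at most 1 UMI of the chemokines Ccl3 and Ccl4. A UMI is a molecular tag that marks 1 captured transcript. The cells were thus chosen by measured levels of 11 genes, and what these genes show is a description and no finding. The rule was met by 360 of 5982 cells, a share of 6.02% (95% exact Clopper-Pearson interval 5.43 to 6.65%). These cells are called chemokine-low microglia here. They are compared with 50 chemokine-high microglia, which met the same rule but had at least 2 UMIs of Ccl3 and Ccl4, and with 109 border macrophages, which had at least 5 UMIs of C1qc and in which the 5 macrophage genes reached at least 2 UMIs and were not outnumbered by the 3 microglial genes.

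Microglia are the resident macrophages of the brain. They enter the brain early in development, depend on signals through the CSF1 receptor and on TGF-beta, survey the tissue through purine receptors such as P2ry12, and clear debris by complement, phagocytic receptors and lysosomes. Border macrophages are related cells that sit along vessels, meninges and other surfaces, and the median eminence, whose capillaries are fenestrated, has both within a short distance of circulating hormones and nutrients.

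The cells came from male C57B/L6 mice aged 40 to 47 days, in a fasted group of 5 mice and a group of 5 mice that were fasted overnight and then refed with chow for 1 h. The median eminences of each group were pooled, dissociated with papain and trituration, sorted and split over 2 droplet libraries. All 5982 cells stand in 1 matrix, and the cell names end in a number from 1 to 4 that no label ties to a library or to a feeding state. The 360 cells were therefore treated as 1 sample, feeding states were not compared, no test was made, and intervals cover counting error only. Values are given by barcode number where they differ.

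Chemokine-low microglia held 1191457 UMIs, with a median of 3015.5 UMIs and 1446 genes a cell and a median mitochondrial share of 1.51%. The 50 chemokine-high microglia were somewhat deeper (median 3781 UMIs) and the border macrophages were similar (median 2927). Chemokine-low microglia made up 6.76%, 7.97%, 4.12% and 4.97% of the cells of barcode numbers 1 to 4 (111, 119, 56 and 74 cells). Their share was thus lowest in number 3 and highest in number 2, and the exact intervals of these 2 (3.13 to 5.32% and 6.65 to 9.46%) did not overlap. Of 21 barcodes found under more than 1 number, 5 belonged to chemokine-low microglia, and no such barcode named 2 of them.

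The rule left few cells near its limits, except for the chemokines. C1qc, which the rule used, ranged from 7 to 80 UMIs a cell with a median of 24, so no chosen cell had 5 or 6 UMIs and 1 cell with 3 or 4 UMIs would otherwise have entered. The 3 microglial genes summed to between 3 and 46 UMIs (median 19), and the 5 macrophage genes were at 0 in 333 cells and at 1 in 18, with a highest sum of 10. Ccl3 and Ccl4 were at 0 in 336 cells and at 1 in 24 cells just inside the limit, against 14 cells at 2 just outside. The chemokine limit cuts a continuous range, so chemokine-low microglia are a range of the microglia and not a separate type.

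The label was checked on 7 microglial markers that the rule did not use (among them Tmem119, Sall1, Fcrls, Siglech, Olfml3 and Csf1r). The median cell had 6 of the 7, and 342 of 360 cells (95%) had 5 or more, against 19.3% of border macrophages and 0.0366% of the 5459 cells with fewer than 5 UMIs of C1qc. The label therefore held for most cells. It did not sit well with 8 cells that were rich in MHC class II transcripts and poor in microglial markers, which are described below, and the values that rest on them are given with and without them.

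RNA of other cell types was present at a low level. The oligodendrocyte list (9 genes) stood at 1276 CPM, its UMIs per 1000000 UMIs of the summed cells, in chemokine-low microglia against 18746 CPM in the cells with fewer than 5 UMIs of C1qc. It was at 777, 602, 3744 and 1239 CPM in barcode numbers 1 to 4, and at 816 CPM without number 3. When each cell was thinned to 1000 UMIs, which left out no cell, 54.2% of chemokine-low microglia had a UMI of the list against 100% of 667 oligodendrocytes gated on at least 10 UMIs of Mal, Mog, Opalin and Ermn. The astrocyte list (6 genes) was at 477 CPM and the neuron list (5 genes) at 115 CPM. No UMI of the 4 neutrophil genes and 1 UMI of the 5 lymphocyte genes was found.

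The promoters of the homeostatic genes were read for the motif GAGGAAGT, or ACTTCCTC on the other strand, which is bound by Spi1 (PU.1), the ETS factor on which the macrophage lineage depends. RefSeq promoters of GRCm38.p6, from 250 bases before to 50 bases after a start, were available for 15 of the 19 homeostatic genes, and the motif was in those of 2 (13.3%), Ctss and Slco2b1, against 997 of 27025 genes (3.69%) over the genome. C1qc, a gene of the rule, also had the motif. With so few genes this is a description of letters and not of binding. The 3 stretches are shown from 5′ to 3′ on the strand of the gene, with the motif in capitals, because Ctss had the highest log2 ratio to the cells with fewer than 5 UMIs of C1qc among the genes compared and C1qc chose the cells.

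Ctss (chr3:95526536-95526791, plus strand): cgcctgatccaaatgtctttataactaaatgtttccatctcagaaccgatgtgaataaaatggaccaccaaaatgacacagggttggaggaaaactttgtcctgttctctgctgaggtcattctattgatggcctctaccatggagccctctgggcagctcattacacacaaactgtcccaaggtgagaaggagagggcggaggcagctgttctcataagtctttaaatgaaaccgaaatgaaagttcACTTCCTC
Slco2b1 (chr7:99711327-99711590, minus strand): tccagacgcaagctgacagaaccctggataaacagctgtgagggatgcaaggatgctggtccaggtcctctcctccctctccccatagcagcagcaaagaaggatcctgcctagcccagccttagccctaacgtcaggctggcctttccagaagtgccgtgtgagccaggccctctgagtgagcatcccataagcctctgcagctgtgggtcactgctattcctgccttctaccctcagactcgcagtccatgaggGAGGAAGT
C1qc (chr4:136893066-136893164, minus strand): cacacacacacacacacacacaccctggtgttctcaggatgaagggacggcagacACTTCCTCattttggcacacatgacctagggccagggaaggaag

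In Ctss the motif began 2 bases before the RefSeq start and ran into exon 1. In Slco2b1 it lay 7 bases into exon 1, in a stretch that GENCODE also assigns to an antisense transcript. In C1qc it began 195 bases before the RefSeq start and outside the GENCODE gene. Spi1 itself was at 500 CPM in chemokine-low microglia and at 497, 542, 471 and 459 CPM in barcode numbers 1 to 4, values that lay close together.

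Against the 5459 cells with fewer than 5 UMIs of C1qc, chemokine-low microglia stood apart by the genes of macrophages. On the log2 scale with 10 CPM added to each value, 7.49% of 13841 genes were at least 1 unit higher in them and 19.9% were at least 1 unit lower. The 15 genes with the highest log2 ratio held the 4 rule genes C1qc (7.71), P2ry12 (7.13), Gpr34 (7.10) and Cx3cr1 (6.61) and, among the others, Ctss (7.79), C1qa (7.71), C1qb (7.57), Csf1r (7.28), Selplg (7.14), Ly86 (6.92), Trem2 (6.82), Tyrobp (6.67), Fcer1g (6.56) and Fcgr3 (6.53). The rule chose cells by C1qc, so these differences are descriptions. C1qa, C1qb and C1qc, the 3 chains of complement C1q, lie together on chromosome 4 between positions 136880129 and 136898803 (GRCm38), and Selplg and Tmem119 lie close to each other on chromosome 5, between positions 113793729 and 113832644.

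The homeostatic list, 19 genes that mark undisturbed microglia and were not part of the rule, varied little across the barcode numbers. It summed to 94442 CPM (exact Poisson interval 93891 to 94996) in chemokine-low microglia, 88626 CPM in chemokine-high microglia and 20042 CPM in border macrophages. By barcode number it was at 89823, 94192, 94679 and 102472 CPM. The highest of the 4 numbers was 1.05 to 1.41 times the lowest for all 19 genes (median 1.16), and the list was lowest in number 1 and highest in number 4.

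Against border macrophages, 16 of the 19 homeostatic genes were at least 1 log2 unit higher and none was lower, with a median of 2.36. Over the 4105 genes compared, 8.77% were that much higher and 4.09% that much lower, and the median was 0.17. The sum of the list was 2.24 log2 units higher (interval 2.20 to 2.27). Both groups were cut by microglial and macrophage genes, so part of this contrast was set by the choice of cells.

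**Figure D1:**
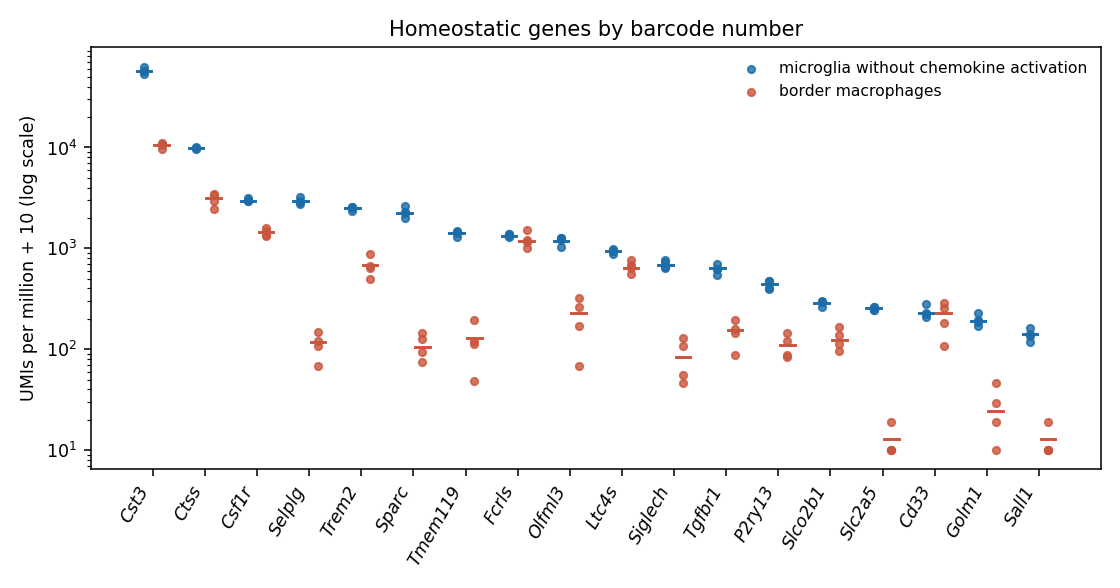
Levels of homeostatic genes (x axis) in CPM plus 10 (y axis, log scale), with 1 point for each of the 4 barcode numbers in chemokine-low microglia and in border macrophages. The points of chemokine-low microglia lie close together for each gene, for Cst3 between 52946 and 63399 CPM, while for Tmem119 they lie between 1284 and 1486 CPM against 38.8 to 183 CPM in border macrophages.

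Secreted and lysosomal products headed the homeostatic list. Cst3, the protease inhibitor cystatin C, was at 56872 CPM, and by barcode number at 52946, 56628, 57507 and 63399 CPM, against 10468 CPM in border macrophages. Ctss, a lysosomal cysteine protease, was at 9877 CPM against 3128 CPM. By barcode number border macrophages were between 9607 and 11110 CPM for Cst3 and between 2447 and 3453 CPM for Ctss. Chemokine-low microglia were at 10043, 9898, 9884 and 9555 CPM for Ctss. The values by number overlapped in neither gene, and the share of all genes that do the same was not counted. Sparc, a matricellular protein, was at 2226 CPM against 94 CPM, a ratio of 23.7 (16.8 to 34.5), and Olfml3, a secreted olfactomedin protein, at 1167 CPM against 219 CPM.

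Among surface proteins, Selplg, the P-selectin ligand, was at 2750, 2939, 2867 and 3192 CPM by barcode number against 108 CPM in border macrophages. It was 26.9 times higher (19.6 to 38.1) and was seen in 99.2% of chemokine-low microglia against 26.6% of border macrophages. Tmem119, a membrane protein widely used to tell microglia from other macrophages, was at 1400, 1439, 1284 and 1486 CPM by number against 183, 102, 110 and 38.8 CPM. Its values by number did not overlap either. Slc2a5, the fructose carrier GLUT5, was at 244 CPM and had 1 UMI in border macrophages, a ratio of 85.7 with a wide interval (15.3 to 3398). Siglech, a sialic acid-binding lectin, was at 673 CPM against 74.1 CPM, and P2ry13, an ADP receptor, at 436 CPM against 99.7 CPM.

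Genes shared with border macrophages were also in the list. Csf1r, the receptor for CSF1 and IL-34, was at 2965 CPM against 1456 CPM, and Trem2, the lipid-sensing receptor that signals through Tyrobp, at 2490 CPM against 672 CPM. Fcrls (1328 and 1162 CPM), Ltc4s (922 and 630 CPM) and Cd33 (217 and 216 CPM) differed by less than 1 log2 unit (0.19, 0.54 and 0.01). Sall1, a transcription factor that holds microglial identity, was at 132 CPM, was seen in 33.3% of chemokine-low microglia and had 1 UMI in border macrophages.

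The transcription factors of the macrophage lineage differed less. Of 14 listed, 12 were compared with border macrophages. Cebpa (log2 ratio 1.34), Bhlhe41 (1.61) and Ikzf1 (1.2) were among 4 past 1 log2 unit higher, and Maf was lower, at 366 CPM against 1085 CPM (-1.54). Irf8 (712 CPM), Mef2c (671 CPM), Spi1 (500 CPM) and Runx1 (113 CPM), which act in the making of microglia, stayed within 1 log2 unit. By barcode number the 12 genes moved by 1.11 to 1.71 times.

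Complement and phagocytic receptor genes (21 genes) summed to 34224 CPM in chemokine-low microglia and 27556 CPM in border macrophages. C1qa was at 10524 CPM against 8107 CPM and C1qb at 9923 CPM against 6725 CPM, so both C1q chains were high in both kinds of macrophage. Of 19 genes compared, 4 were past 1 log2 unit higher, the complement receptor 3 subunits Itgam (2.53) and Itgb2 (1.75), the bridging protein Pros1 (1.58) and its receptor Mertk (1.12). In the other direction 5 were lower, Fcgr2b, C5ar1, C3ar1, Gas6 and Axl. Tyrobp, the adaptor for Trem2 and complement receptor 3, was at 3674 CPM, and Fcer1g, the shared Fc receptor chain, at 2864 CPM. C3 had no UMI among the 1191457, which allows a level of up to 2.52 CPM (3 counts), and Cfp had 1 UMI.

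The lysosome list (18 genes) was at 31953 CPM against 30869 CPM in border macrophages, and 12 of the 18 genes lay within 1 log2 unit (median 0.20). Ctsd (1.63), Ctsl (1.45), Ctsf (1.19) and Lgmn (1.15), all lysosomal proteases, were past 1 log2 unit higher. Lyz2, the lysozyme of myeloid cells, was 2.66 log2 units lower and Ctsc 1.10 log2 units lower. Lyz2 was also uneven within chemokine-low microglia, as described with Apoe below.

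Signalling genes were compared with border macrophages as lists. Over all 4105 genes, 8.77% were past 1 log2 unit higher and 4.09% lower. Of 13 purine and lipid mediator genes compared, 3 were past 1 log2 unit higher, 2 lower and 8 within it, of 12 genes of the TGF-beta and CSF1 pathways 4 were higher, 1 lower and 7 within it, and of 11 innate sensors 1 was higher, 1 lower and 9 within it (median 0.01). Ptgs1, the constitutive cyclooxygenase, was at 626 CPM against 82.6 CPM in border macrophages, and Adora3, an adenosine receptor, at 121 CPM against 5.7 CPM. The proton channel gene Hvcn1 was 1.58 log2 units higher. Adora3 had 2 UMIs in border macrophages and a ratio of 21.2 (5.77 to 177), so its size is loosely set. P2rx4 and P2rx7, both ATP-gated channels, were past 1 log2 unit lower. Among genes of the TGF-beta and CSF1 pathways, Tgfb1 was at 421 CPM and the inhibitor Smad7 was 2.04 log2 units higher, while Nrros, which holds latent TGF-beta1 at the cell surface, was 1.18 log2 units lower. Ly86, the partner of the Toll-like receptor relative Cd180, was at 1617 CPM against 601 CPM.

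Of the receptors that could read the feeding state, the list (17 genes) summed to 878 CPM. The adiponectin receptor gene Adipor1 was at 174 CPM and the glucocorticoid receptor gene Nr3c1 at 115 CPM. Lepr, the leptin receptor gene, had 10 UMIs (8.39 CPM), and Glp1r, Ghsr, Gipr and Ffar4 had none, which allows up to 2.52 CPM each. Among glucocorticoid-responsive genes, Sgk1 was at 412 CPM against 39.9 CPM in border macrophages, a ratio of 10.3 (6.1 to 19), and Tsc22d3 was lower, at 272 CPM against 635 CPM.

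Over all 4105 genes compared, which leave out those of the rule, the 10 furthest above border macrophages were Selplg (4.63), Ecscr (4.51), Sparc (4.43), Lag3 (4.37), Slc2a5 (4.31), Serpine2 (4.06), St3gal5 (4.04), Cd34 (3.71), Cd9 (3.55) and Spint1 (3.50). Of these, Selplg, Sparc and Slc2a5 are of the homeostatic list, and Cd9 is a gene of disease-associated microglia. Lag3, an inhibitory receptor better known from T cells, was at 609 CPM against 19.9 CPM, a ratio of 30.6 (14.8 to 76.3). Serpine2, a secreted inhibitor of serine proteases, was at 820 CPM against 39.9 CPM. St3gal5, the synthase of ganglioside GM3, was at 295 CPM and had 3 UMIs in border macrophages, and Cd34, a sialomucin of progenitor and endothelial cells, was at 195 CPM and had 2.

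Of the 10 genes furthest below border macrophages, 4 were haemoglobin genes (Hba-a2, Hbb-bs, Hba-a1 and Hbb-bt, -8.35 to -6.16). A border macrophage barcode held 99.9% of their UMIs in that group, and without it the 4 log2 ratios were 0.42, 0.16, 0.67 and 0.32. The other 6 were Ccl8, Mgl2, Ccl7, Ccn1, Dab2 and Clec4n. Ccl8, a chemokine ligand gene, had no UMI in chemokine-low microglia and 778 CPM in border macrophages, at least 309 times lower when the count of 0 is set to 3. Mgl2, a lectin gene of border macrophages, and Ccl7 also had none, against 216 and 239 CPM, as had Ccn1 against 256 CPM. Without barcode number 1, Ccl7 and Ccn1 were at 70.4 and 103 CPM in border macrophages. Dab2, an endocytic adaptor, was at 13.4 CPM against 812 CPM, 60.5 times lower (36.6 to 107), and Clec4n had 3 UMIs against 273 CPM.

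Interferon genes were low in chemokine-low microglia. The interferon list (16 genes) was at 938 CPM against 4389 CPM in border macrophages, with all 10 genes compared past 1 log2 unit lower. Of 8 lipid handling genes compared, 3 were past 1 log2 unit lower and 5 lay within it (median -0.16), and the lowest was Plin2, the coat protein of lipid droplets, at 61.3 CPM against 373 CPM. Igf1, the growth factor, was at 7.55 CPM against 248 CPM, 32.8 times lower (16.5 to 74.1). The cell cycle list (11 genes) was at 71.3 CPM with 1 UMI each of Mki67 and Top2a. Border macrophages were at 254 CPM, which rested on barcode number 3 (818 CPM) and fell to 81.7 CPM without it, so a difference was not shown. Whether single chemokine-low microglia were cycling was not tested. Among genes of disease-associated microglia, Cd9 was high (1374 CPM against 108 CPM), while Cst7 (31.9 CPM), Lpl (27.7 CPM), Itgax (23.5 CPM), Spp1 (14.3 CPM) and Gpnmb (1.68 CPM) were low and Apoe was unevenly spread.

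How the cells differed among themselves was measured as the ratio of variance to mean over cells thinned to 1000 UMIs. Over 2820 genes this ratio had a median of 1.01, close to that of pure counting. The 15 highest included Apoe (80.6), Cd74 (36.7), Ccl5 (13.3), Actb (10.2), Ptgds (9.6), H2-Ab1 (9.5), Cst3 (9.0), Malat1 (9.0), Lyz2 (8.1), H2-Aa (8.0), H2-Eb1 (7.1), Fos (5.1), Jun (4.8) and Junb (4.8). Cd74, H2-Ab1, H2-Aa and H2-Eb1 are of the MHC class II list, and Fos, Jun and Junb of the early response list. Ccl5, a chemokine gene of lymphoid and activated myeloid cells, had 153 UMIs in 15 of the 360 cells, 89 of them in 1 cell, and its 128 CPM fell to 66.1 CPM without barcode number 1.

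Most MHC class II transcripts lay in 8 cells, and those of H2-Aa and H2-Eb1 almost wholly so. The list (7 genes) was at 2467 CPM (2378 to 2558) in all 360 cells and at 2656, 3684, 1765 and 693 CPM in barcode numbers 1 to 4, against 19483 CPM in border macrophages. Cells with at least 20 UMIs of H2-Aa, H2-Ab1, H2-Eb1 and the invariant chain gene Cd74 numbered 8 (2, 5, 1 and 0 by barcode number), with 39 UMIs in the lowest, 132 in the next and 457 in the highest. The highest other cell had 13, and 241 cells had none. The limit of 20 was set after the values had been seen. Without the 8 cells the list was at 824 CPM, so part of it lay in the other cells.

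These 8 cells held 98.9% of the H2-Eb1 UMIs, 98.6% of H2-Aa, 87.9% of H2-Ab1, 85.7% of Cd74, 28.3% of Lyz2 and 38 of the 40 UMIs of Ccr2, the chemokine receptor of monocytes, while they made up 3.16% of all UMIs. They had 4 of 1681 Tmem119 UMIs and 10 of 3473 Selplg UMIs. Their C1qc counts had a median of 15.5 UMIs. They met the rule, but the 2 microglial markers were close to absent in them, and they are called MHC class II-rich cells here. Ccl5 and Flt3 had no UMI in them. Their median depth was 3930 UMIs, and a doublet caller marked none of the 8 and 5 of all 360 cells.

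**Figure D2:**
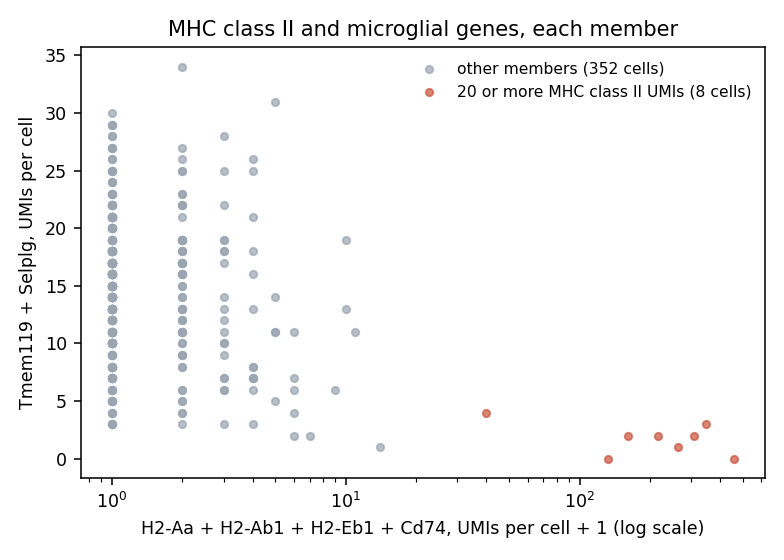
Each point is a cell of the chemokine-low microglia, with its UMIs of H2-Aa, H2-Ab1, H2-Eb1 and Cd74 plus 1 (x axis, log scale) against its UMIs of Tmem119 and Selplg (y axis). The 8 MHC class II-rich cells stand apart at 39 to 457 UMIs on the x axis and near 0 on the y axis, where no other cell exceeds 13 UMIs on the x axis.

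Apoe, the apolipoprotein that carries lipids between brain cells, varied most. In cells thinned to 1000 UMIs its median was 3 (quartiles 1 and 9), its 90th percentile 55 and its highest value 240. Border macrophages had a median of 93 and a lowest value of 15, and gated oligodendrocytes a median of 2 with 2.85% of cells at 10 or more. Of the chemokine-low microglia 88 (24.4%) had 10 or more, with 31.5%, 22.7%, 30.4% and 12.2% by barcode number. Number 4 had the lowest share. The gated oligodendrocytes were deeper, with a median of 6154 UMIs against 3015.5. Among the cells with fewer than 5 UMIs of C1qc, 57.2% had 10 or more. Whether Apoe RNA of other cells added to these counts was not tested. The 21 cells with 8 to 12 lie near the limit, so the ranges below are parts of a gradient and not types.

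Other transcripts moved with Apoe. Leaving out the MHC class II-rich cells, 272 cells had fewer than 10 Apoe UMIs in 1000, 42 had 10 to 39 and 38 had 40 or more. Across these 3 ranges Apoc1, an apolipoprotein next to Apoe in the genome, stood at 4.93, 174 and 972 CPM, and Lyz2 at 404, 1464 and 3992 CPM. In the highest range 1 cell held 317 of 678 Lyz2 UMIs, and without it Lyz2 was at 2277 CPM. In the middle range 21 of 30 Apoc1 UMIs were in 1 cell, and without it Apoc1 was at 54.4 CPM. Of MHC class I, H2-D1 stood at 880, 2442 and 3757 CPM, and the interferon-induced Ifi27l2a at 34.5, 827 and 630 CPM. The chemokine gene Ccl12 stood at 247, 758 and 842 CPM, and Axl, a receptor for phosphatidylserine-bound Gas6, at 23.4, 104 and 194 CPM. Most of these were higher already at 10 to 39 Apoe UMIs.

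Homeostatic genes ran the other way. Tmem119 stood at 1720, 960 and 683 CPM across the 3 ranges, Selplg at 3617, 1759 and 1325 CPM and Slc2a5 at 324, 122 and 41.2 CPM. P2ry12, a gene of the rule, stood at 2875, 1481 and 901 CPM. C1qa did not run in that direction (10185, 11543 and 11882 CPM). Of the border macrophage list, 3 genes had enough UMIs to compare between the ends of the range, of which 2, Lyz2 and Ms4a6c, were past 1 log2 unit higher with more Apoe and none was lower (median 1.77). Stab1, the other of the 3, stood at 105, 122 and 88.3 CPM, against 897 CPM in border macrophages. Among macrophage genes of the rule, Ms4a7 stood at 1.23, 5.79 and 118 CPM and Mrc1 at 2.47, 5.79 and 64.8 CPM, while Cd163 (1.23, 0 and 0 CPM) and F13a1 (no UMI in any range) were not higher with more Apoe. The rule kept the level of these 4 low, so no comparison with border macrophages is drawn from them, and the value of Ms4a7 at 40 or more was 69.4 CPM without 1 cell.

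**Figure D3:**
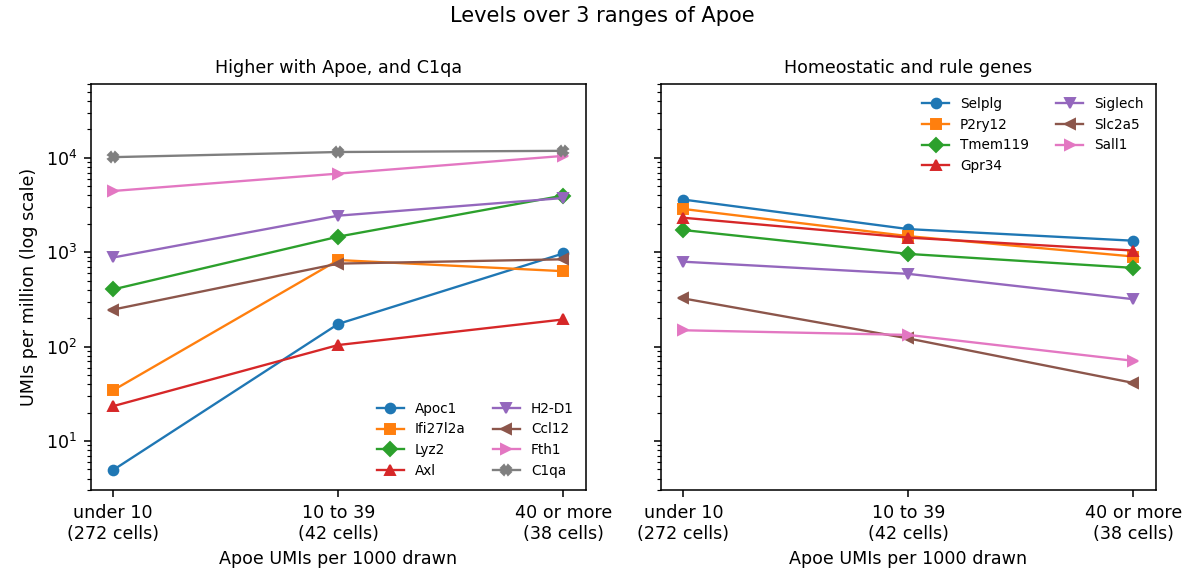
Levels in CPM (y axis, log scale) over 3 ranges of Apoe, fewer than 10, 10 to 39 and 40 or more UMIs in 1000 (x axis), without the MHC class II-rich cells, with 1 line for each gene. Lyz2 goes from 404 to 3992 CPM (2277 CPM without 1 cell) and Tmem119 from 1720 to 683 CPM, while C1qa stays between 10185 and 11882 CPM.

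Between the ends of the range, 1.2% of 2927 genes were at least 1 log2 unit higher at 40 or more Apoe UMIs and 12.2% were at least 1 log2 unit lower, with a median of -0.33. Of the homeostatic list 0 of 19 genes were higher and 9 lower (median -0.98). Of the early response list 0 of 14 were higher and 14 lower (median -1.96), with Fos at 588 CPM against 47.1 CPM. Cells with at least 10000 CPM of this list, described below, were 10.7% of those under 10 Apoe UMIs and 3.75% at 10 or more. They held 61.2% of the list's UMIs and 81.8% of the Fos UMIs in chemokine-low microglia. This contrast thus rests in good part on few cells. Of the MHC class I list 3 of 5 were higher, as were 3 of 3 interferon genes, and of 19 complement and phagocytic genes 1 was higher and none lower (median 0.04). The cells with more Apoe were deeper, with a median of 2845.5, 4041.5 and 4052.5 UMIs over the 3 ranges, and Apoe itself took 6.39% of the UMIs of cells at 10 or more against 0.285% in those below 10. With Apoe left out of the totals Tmem119 was at 879 CPM against 1725 CPM, a gap of about the same size.

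The same differences were seen under each barcode number. Tmem119 in cells under 10 and at 10 or more was at 1768 and 932 CPM in number 1, 1877 and 611 CPM in number 2, 1457 and 955 CPM in number 3 and 1622 and 778 CPM in number 4. Lyz2 was at 286 and 1823 CPM, 445 and 4950 CPM, 459 and 1754 CPM, and 455 and 1502 CPM in the same order, where the 4950 CPM of number 2 was 2104 CPM without that cell, and H2-D1 was higher at 10 or more in all 4. The cells at 10 or more numbered 33, 22, 16 and 9. Rank correlations were taken over 352 cells thinned to 1000 UMIs, which share library and chemistry. For Apoe they were 0.48 with H2-D1, 0.44 with Lyz2, -0.39 with Tmem119 and -0.39 with the rule gene P2ry12.

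**Figure D4:**
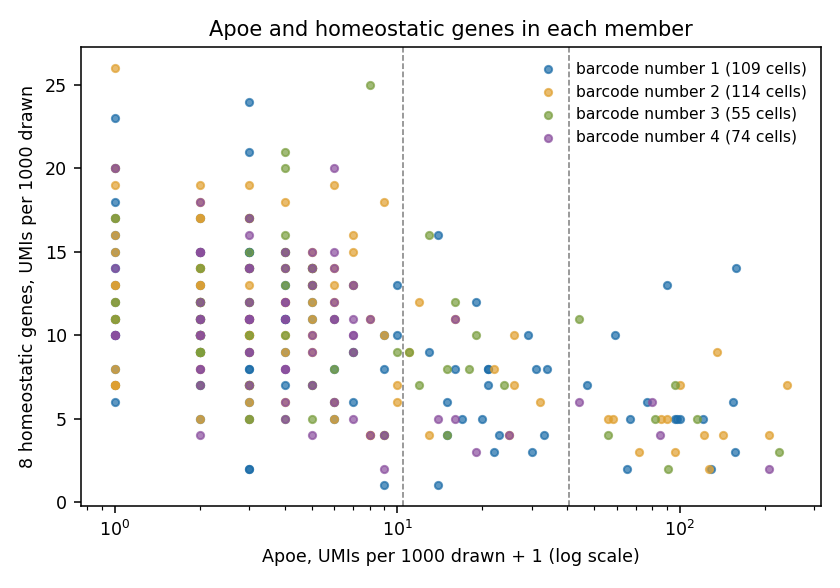
Each point is a chemokine-low microglial cell thinned to 1000 UMIs, with its Apoe UMIs plus 1 (x axis, log scale) against its UMIs of 8 homeostatic genes (y axis), coloured by barcode number. The MHC class II-rich cells are left out. Cells of numbers 1 to 4 run from 0 up to 158, 240, 224 and 206 Apoe UMIs, and number 4 has only 9 cells at 10 or more.

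Chemokine-low and chemokine-high microglia had much in common. Over 3844 genes, 3.15% were at least 1 log2 unit higher and 1.4% at least 1 log2 unit lower in chemokine-low microglia (median 0.10). None of the 19 homeostatic genes was past 1 log2 unit in either direction (median 0.19). Selplg was 1.55 times higher (1.40 to 1.72), Tmem119 1.45 times (1.25 to 1.68) and P2ry12, a gene of the rule, 1.51 times (1.34 to 1.70). These 3 intervals lie above 1 and cover counting error only.

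The early response list, 20 genes that a stimulus induces within minutes, separated the groups. It was at 4854 CPM (4729 to 4980) in chemokine-low microglia, 13163 CPM in chemokine-high microglia and 5674 CPM in border macrophages, a sum 1.44 log2 units lower than in chemokine-high cells (interval -1.50 to -1.37). Of 15 genes compared 12 were past 1 log2 unit lower and none higher, with a median of -1.48. Fos was 3.34 times lower than in chemokine-high cells (2.90 to 3.85), Jun 3.14 times (2.79 to 3.52) and Egr1 4.65 times (3.28 to 6.55). By barcode number the list in chemokine-low microglia was at 5168, 5846, 3006 and 4171 CPM, lowest in number 3.

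The early response did not stop at the chemokine limit. At least 10000 CPM of the list was reached by 32 of the 360 cells (8.89%), 12, 14, 2 and 4 by barcode number, and they held 61.2% of the list's UMIs in chemokine-low microglia. The median cell had 1976 CPM and the highest 56370 CPM. Of the 32 cells, 29 had neither Ccl3 nor Ccl4. The 32 cells were chosen by the sum of the list, so high levels of its genes in them follow from that choice and are a description. In them the list gene Fos was at 3943 CPM against 89.8 CPM in the other chemokine-low microglia, Jun at 5089 against 235 CPM and Junb at 5739 against 331 CPM. The shear- and stimulus-responsive Klf2 was at 2184 against 59.2 CPM and the phosphatase gene Dusp1 at 1471 against 22.2 CPM, both also of the list. Nfkbia, which is not in the list, was also higher, at 1624 against 177 CPM. Ccl12 was at 415 against 405 CPM, Hspa1a at 27.1 against 28.7 CPM and Tmem119 at 1128 against 1440 CPM. Apoe was low in these cells (3420 against 23886 CPM).

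Stepwise over Ccl3 and Ccl4, the list was at 4848 CPM in the 336 cells with none, 4921 CPM in the 24 cells with 1, 12549 CPM in 23 cells with 2 to 4, 8102 CPM in 19 cells with 5 to 19 and 27691 CPM in 8 cells with 20 or more. The share of cells at 10000 CPM or more was 8.63%, 12.5%, 43.5%, 26.3% and 75%. The order was not strict, since 5 to 19 lay below 2 to 4. Tmem119 was at 1425, 1258, 946, 1014 and 938 CPM over the same steps. In the list and in Tmem119 the 24 cells just inside the limit were nearer to the cells with none. This depended on the gene. Over 0, 1 and 2 to 4 UMIs, Nfkbia (296, 477 and 769 CPM) went the same way. Selplg (2959, 2425 and 2082 CPM) and Cd83 (132, 264 and 308 CPM) put the 24 cells nearer to those with 2 to 4.

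**Figure D5:**
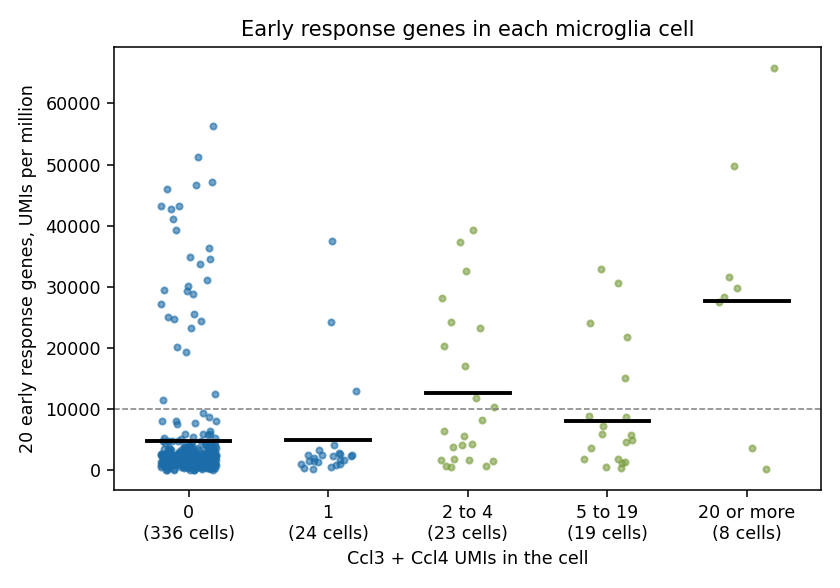
Early response list in CPM for each cell (y axis) over steps of Ccl3 and Ccl4 UMIs (x axis), with a dashed line at 10000 CPM. Of the cells with 0 chemokine UMIs 8.63% lie above the line, against 75% of those with 20 or more.

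Cytokine genes followed the chemokines in part. Il1a, a constitutively made alarm cytokine, was at 83.1 CPM in chemokine-low microglia, 257 CPM in chemokine-high microglia and 2.85 CPM in border macrophages. Il1b was at 24.3 against 128 CPM and Nfkbia, the inhibitor that NF-kB induces, at 311 against 803 CPM in the 2 kinds of microglia, and Tnf had 6 UMIs. Ccl12 was at 406 CPM against 1121 CPM. Of 9 cytokine and inflammatory genes compared, 5 were past 1 log2 unit lower than in chemokine-high cells, against 1.4% of all genes. Without the chemokine-high cell with most Cxcl10, described below, it was 4 of 9, against 1.12% of all genes. Il10 had no UMI.

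The extremes against chemokine-high microglia rested on few cells. Highest were H2-Eb1 (4), H2-Aa (3.12), H2-Ab1 (2.70), Pmm2 (2.53), Ccl5 (2.25), Exosc7 (2.13), Vwa5a (2.01), Tmem60 (1.97), Acsl3 (1.91) and Dpy19l4 (1.88). The MHC class II genes lead through the 8 cells, and without these H2-Aa turned to -1.11 and 0 of 3 MHC class II genes compared were past 1 log2 unit higher, against 3.08% of all genes (1.46% lower). Lowest were Rsad2 (-4.33), Cxcl10 (-4.31), Hmox1 (-3.59), Ifit3 (-3.40), Avp (-2.56), Egr1 (-2.06), Il1b (-2.01), Atf3 (-1.90), Lgals3 (-1.77) and 6330403K07Rik (-1.75). A chemokine-high cell held 98.4% of the Cxcl10, 94.1% of the Rsad2 and 93.8% of the Ifit3 UMIs of that group, so that 6 of 10 interferon genes were lower with it and 0 of 7 without it. Without that cell 1.12% of all genes compared were past 1 log2 unit lower. For Hmox1, Avp and 6330403K07Rik, 92.3%, 65.3% and 80.6% of the UMIs in chemokine-high microglia also came from 1 cell each. Egr1 and Atf3 (43.6 against 190 CPM) were spread over more cells.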

How the data were processed

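Reads of 4 droplet libraries (10x Chromium Single Cell 3′ V2), entered as 32 sample records, were turned by the authors into UMI counts with Cell Ranger 2.0 on mm10 (GRCm38), and 1 matrix of raw counts was deposited for 5982 cells and 27998 genes (29288898 UMIs). Of the gene IDs, 27645 matched a symbol. Members and gene lists were chosen with earlier results of these data known. Counts were summed over the cells of a group and given per 1000000 UMIs (CPM) with exact Poisson intervals, and shares with exact Clopper-Pearson intervals. Genes with at least 50 UMIs over both groups were compared as log2 ratios with a pseudocount of 10 CPM, where a fold means at least 1 log2 unit. Transcripts were counted at their 3′ ends, and levels are compared between groups and not between genes. Named genes were the list genes with the highest CPM in each role, the 15 highest against cells with C1qc under 5 UMIs, the 10 highest and 10 lowest in each other contrast and the 15 with the largest variance to mean ratio (at least 20 UMIs when thinned to 1000), without mitochondrial and unnamed genes. The genes set beside Apoe, in the MHC class II-rich cells and in the early response cells, and the oligodendrocyte gate, were chosen after the values were seen. Scrublet (scanpy 1.11.5) called 50 of 5982 cells (0.836%) doublets, 5 of them chemokine-low microglia, and they were kept. The alternatives were other limits of the rule, thinning, doublets or single barcode numbers left out, a filter at 1000 UMIs and 20% mitochondrial UMIs, and cells left out that were chosen after seeing the data. The scripts were tested on simulated data. Python 3.11.15, numpy 2.4.6, scipy 1.17.1 and pandas 2.3.3 were used. Values of some listed genes are not reported here, while they count in the sums and counts of their lists.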

Additional observations from a re-analysis of the deposited data

Results flagged for a closer look

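Of 19 gene lists compared over the 4 barcode numbers in chemokine-low microglia, 2 had a number far from the other 3 by Dixon's criterion, which chance alone meets in about 1 of 20 groups. The lysosome list was at 33366 CPM in number 2, above the 31086 to 31411 CPM of the others. Lyz2, a gene of this list, was at 1271, 2417, 1006 and 624 CPM in numbers 1 to 4. In number 2, 1 cell held 317 of its 927 UMIs. The list was not compared without Lyz2, so a shift of the lysosomal genes as a set is not shown. The cell cycle list was at 91.0 CPM in number 4, above the 64.2 to 67.8 CPM of the others, and rests on 85 UMIs in all.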

How the results depend on the processing

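No paired analysis was possible because no label ties a barcode number to a replicate or a feeding state and no test was made. The number of chemokine-low microglia was 360 and lay between 241 and 383 over all alternatives. Their share was 5.37 to 6.58% and the homeostatic log2 ratio to border macrophages 2.20 to 2.30 when each barcode number was left out. The early response log2 ratio of -1.44 was -1.34 with up to 4 chemokine UMIs, -1.62 when thinned, -1.31 as a median over barcode numbers and -1.46 to -1.38 without each number. The MHC class II list, at 2467 CPM, moved most. It was at 1998 CPM with C1qc at 10 or more, 2085 CPM with a microglial sum of 4 or more, 2605 CPM with no chemokine UMI, 2349 CPM with up to 4, 2042 CPM when thinned, 2210 CPM as a median over numbers, 1889 to 2893 CPM without each number and 824 CPM without the 8 MHC class II-rich cells. A filter on depth and mitochondrial share removed none of the 360 cells. Log2 ratios that turned sign were those of 6330403K07Rik (0.49 without doublets, -2.43 to 0.38 without each number), Lgals3 (0.22 thinned), Cxcl10 (-5.87 to 0.13 without each number, 0.09 without 1 cell), H2-Aa (-1.11 without the 8 cells), Hba-a2, Hbb-bs, Hba-a1 and Hbb-bt. Without each number these 4 lay between -8.99 and 0.58, -9.1 and 0.58, -8.21 and 0.69, and -6.71 and 0.46, and without 1 cell at 0.42, 0.16, 0.67 and 0.32. Of 1064 values of 76 genes at 100 CPM or more, 13 moved by over 1.5 times, in 7 genes that include Ptgds, Ccl5, H2-Eb1, H2-Aa, H2-Ab1 and Cd74. Where a gene turned with 1 cell or 1 number, the counts of that cell show the cause, and for Lgals3, with 28 and 22 UMIs, the cause was not tested. Depth limits genes under 2.52 CPM in chemokine-low microglia and under 14.3 CPM in the 50 chemokine-high cells.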

Other observations

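Genes of the stress response separated barcode numbers 1 and 2 from 3 and 4. Over genes compared across the numbers, 11.2% had a highest value at least 2 times the lowest, against 6 of 8 heat shock genes (75%). The heat shock list was at 2107, 1896, 4402 and 3517 CPM in numbers 1 to 4. The split was not particular to these cells, since the list was at 2685, 2394, 3979 and 3959 CPM in chemokine-high microglia, 2274, 2117, 4344 and 5749 CPM in border macrophages and 4331, 4201, 6327 and 6147 CPM in the cells with fewer than 5 UMIs of C1qc. Hspa8, the constitutive HSP70, was at 897, 858, 1802 and 1460 CPM, its co-chaperone Dnaja1 at 167, 138, 503 and 481 CPM and Hsp90ab1 at 436, 365, 931 and 650 CPM. The inducible Hspa1a was at 5.13, 7.82, 102 and 43.3 CPM, but was seen in only 1.8%, 2.52%, 7.14% and 4.05% of the cells. Hspa1a did not follow the split in chemokine-high microglia (98.2, 50.5, 33.7 and 0 CPM). In border macrophages it was high in number 4 alone (27.4, 18.5, 12.2 and 233 CPM).

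Ddit4, an inhibitor of mTORC1 that stress and glucocorticoids induce, ran the other way, at 161, 232, 16 and 21.7 CPM, and was seen in 34.2%, 44.5%, 5.36% and 6.76% of the cells. In border macrophages it was at 210, 129, 12.2 and 0 CPM, and in cells with fewer than 5 UMIs of C1qc at 151, 166, 75.7 and 92.4 CPM. The numbers differed in Ddit4 in all 3 groups of cells. Apoc1 (292, 107, 300 and 13 CPM) was uneven without following this split. What sets the numbers apart cannot be told from the labels.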
